A study of Homo sapiens with 6 samples.

Results

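The genes described here encode the HSP70 chaperones and the proteins that work with them: the HSP110 exchange factors, the mitochondrial chaperones, 2 small heat shock proteins, the J-domain (HSP40) proteins, the BAG proteins and other cofactors, the chaperonin TRiC, its partner prefoldin, and heat shock factor HSF2. They were taken by symbol from a list of 50 genes, and all 50 had a row among the 36887 genes of the count table. The cells were 5637, an established human bladder cancer line, grown in RPMI medium with fetal bovine serum and transfected for 48 h with an siRNA against YKT6 (siYKT6, genotype label YKT6 knockdown, 3 samples) or a negative control siRNA (siNC, genotype label WT, 3 samples). Messenger RNA was sequenced to ask how loss of YKT6, a SNARE protein of vesicle fusion, changes the transcriptome. The design has 1 cell line and 1 time point, and the labels do not say whether replicates were separate cultures or whether siYKT6-1, siYKT6-2 and siYKT6-3 were different siRNAs, so the p-values measure the spread between these samples, which may be technical.

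HSP70 proteins bind exposed hydrophobic stretches of client proteins in a cycle driven by ATP. J-domain proteins bring the client and start ATP hydrolysis, and HSP110 and BAG proteins release the nucleotide so that the client can leave. Prefoldin passes newly made actin and tubulin to TRiC, a closed double ring in which they fold, and many of these genes are induced after heat or proteotoxic stress by heat shock factors that bind repeated GAA and TTC blocks in promoters.

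The knockdown was visible in every sample. YKT6 had 17.7, 19.4 and 17.3 CPM (read counts relative to library size, with TMM scaling between samples) in siYKT6 cells, against 64.5, 65.3 and 68.2 CPM in siNC cells, a log2 fold change of -1.86 ± 0.05 (SE), or 27.5% of the siNC level. The exact two-sided permutation test over the samples gave p = 0.10, the smallest it can give with 3 against 3, while edgeR's adjusted p across all genes was 5.31e-17. Libraries held 57546297 to 64429709 counts in siYKT6 and 45205238 to 64982015 in siNC. The 10 epithelial markers summed to 3353 to 3544 CPM in siYKT6 and 4479 to 4612 CPM in siNC, with KRT20 at or near 0 in both groups. Of the 9 tested, 5 were lower, EPCAM was higher (log2 fold change 0.17), and KRT7, KRT18 and UPK2 did not pass. The 6 leukocyte markers, mostly CD68, summed to 3.48 to 4.40 CPM in siYKT6 and 4.51 to 5.22 CPM in siNC. The 6 fibroblast markers, mostly COL1A1, summed to 33.8 to 36.1 CPM in siYKT6 and 30.1 to 31.0 CPM in siNC, and the 4 endothelial markers to 1.558 to 1.596 CPM in siYKT6 and 0.861 to 1.39 CPM in siNC. The part of these differences in the chaperone values was not tested. In bulk RNA, fewer cells of a type and less RNA per cell cannot be told apart.

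Reads from genes that overlap on opposite strands were not separated in these counts. Across the table, 243 short genes whose exons lay within those of a well expressed gene on the other strand had a median read density 0.617 times that of the host gene. The overlaps of TRAP1, HSPD1, HSPE1, BAG2, CCT5 and PFDN6 with RGL2 are given below beside their values. Of the smaller overlaps on the other strand, those of called members were PFDN6 with WDR46 (7.65% of its exon bases), DNAJB1 with TECR (6.21%), DNAJA4 with RP11-762H8.4 (5.60%) and RP11-762H8.3 (1.08%), HSPA4L with RP11-50D9.3 (4.61%) and RP11-50D9.1 (1.57%), BAG4 with LSM1 (4.12%), PFDN2 with NIT1 (3.84%) and PFDN1 with CYSTM1 (1.81%). Those of uncalled members were CCT4 with AC107081.5 (9.72%) and COMMD1 (2.86%), TCP1 with ACAT2 (8.05%), DNAJC7 with NKIRAS2 (5.16%) and CNP (4.28%), BAG2 with RP11-203B9.4 (1.46%), BAG5 with KLC1 (1.37%) and HSPA14 with CDNF (0.84%). The part of these overlaps in the values was not tested.

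Heat shock elements were looked for first, since they are the best known sequence feature of these genes. A RefSeq promoter window (250 bases before to 50 after a start site, GRCh38.p14) was found for 45 of the 50 members, and BAG4, PFDN2, CCT6A, HSPA14 and ST13 had none. The motif searched was 3 alternating GAA and TTC blocks, each separated by 2 free bases and starting with either block, which covers both strands. It stood in a window of 4 members, HSPD1, HSPA8, DNAJA1 and DNAJB6, and in 0.608% of all 27305 genes with a window. Only exact blocks inside the window counted, so a gene without a match is not shown to lack a heat shock element. Of these 4 genes, HSPD1 and HSPA8 were lower in siYKT6, DNAJA1 was higher and DNAJB6 did not pass the test. The calls of HSPA8 and DNAJA1 were lost in 7 and 3 of 14 alternative fits. For comparison, 16.3% of all genes tested were lower and 14.6% higher. Whether the motif goes with a direction was not tested. The stretches around the 5 matches are shown because they carry this feature, with the GAA and TTC blocks in capitals. The HSPD1 stretch holds 4 blocks in a row and lies at chr2:197500054-197500090 on the minus strand. The 2 of HSPA8 lie at chr11:123062340-123062380 and, closer to the start, at chr11:123062165-123062205, both on the minus strand. The match in DNAJA1 lies at chr9:33025262-33025302 and that in DNAJB6 at chr7:157336859-157336899, both on the plus strand.
HSPD1: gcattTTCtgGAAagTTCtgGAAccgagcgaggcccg
HSPA8 distal: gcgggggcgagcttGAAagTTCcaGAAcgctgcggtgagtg
HSPA8 proximal: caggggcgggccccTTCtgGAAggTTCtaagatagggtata
DNAJA1: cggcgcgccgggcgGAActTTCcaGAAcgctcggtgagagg
DNAJB6: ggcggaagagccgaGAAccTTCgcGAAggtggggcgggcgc

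With 2 blocks in place of 3, the pattern stood in 18 of the 45 members and in 16.2% of all genes with a window. Every 3-block match contains the shorter pattern, so the 4 genes above are among the 18. Of the 18, 9 were lower in siYKT6, 2 were higher and 7 did not pass the test. Among all 50 members, 20 were lower, 8 were higher and 22 did not pass. Of all genes tested, 16.3% were lower and 14.6% higher, and of those of at least 5 CPM 24.2% and 22.0%. Whether genes with the pattern moved differently from the other members was not tested. The stress-inducible pair HSPA1A and HSPA1B belonged to the 18, each with 1 such match. Their 300-base windows are shown whole because the genes are near-identical and fell together, with the GAA and TTC match and the bases between in capitals. The HSPA1A window lies at chr6:31815293-31815592 and the HSPA1B window at chr6:31827488-31827787, both on the plus strand, and 277 bases were identical in their alignment. The matched letters were the same in both windows and began 106 bases before the start site of HSPA1A and 105 before that of HSPA1B. A match describes the letters of a window and is not evidence of binding.
HSPA1A: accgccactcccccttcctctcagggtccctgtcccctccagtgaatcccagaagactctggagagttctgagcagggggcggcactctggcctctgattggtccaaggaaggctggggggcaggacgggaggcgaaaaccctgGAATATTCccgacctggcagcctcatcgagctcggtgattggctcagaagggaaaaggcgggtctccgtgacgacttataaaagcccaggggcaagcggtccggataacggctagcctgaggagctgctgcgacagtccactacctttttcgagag
HSPA1B: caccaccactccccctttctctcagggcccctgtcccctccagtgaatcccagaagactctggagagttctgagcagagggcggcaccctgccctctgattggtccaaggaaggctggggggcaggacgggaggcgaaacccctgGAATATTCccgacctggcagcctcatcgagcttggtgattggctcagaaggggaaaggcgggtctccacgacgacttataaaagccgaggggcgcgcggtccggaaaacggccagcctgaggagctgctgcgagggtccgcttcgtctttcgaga

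Among the members as a whole, small decreases outnumbered increases. With edgeR's quasi-likelihood test and a threshold of 0.05 on the adjusted p, 8 members were higher in siYKT6, 20 were lower and 22 did not pass. Of all 21036 genes tested, 14.6% were higher and 16.3% lower, and 30.8% were called in either direction. Since 48 of the 50 members had a mean of at least 5 CPM, a nearer background is the 11615 genes at that level, of which 22.0% were higher and 24.2% lower (46.2% in all). The changes were small: 16 of the 28 called members had an absolute log2 fold change under 0.2, 11 lay between 0.2 and 0.5, and 1, BAG4, was above 0.5. The median absolute log2 fold change was 0.10 over the members and 0.13 over all genes of at least 5 CPM. No member of at least 5 CPM reached 0.6, a size that 2.74% of such genes reached. The median signed log2 fold change was -0.07 over the members and 0.00 over all tested genes. The groups did not overlap for 27 members, 8 with every siYKT6 sample above every siNC sample and 19 below. Of all genes tested, 41.8% did not overlap (20.3% above, 21.5% below), and of those of at least 5 CPM 55.7% (27.2% above, 28.4% below).

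**Figure D1:**
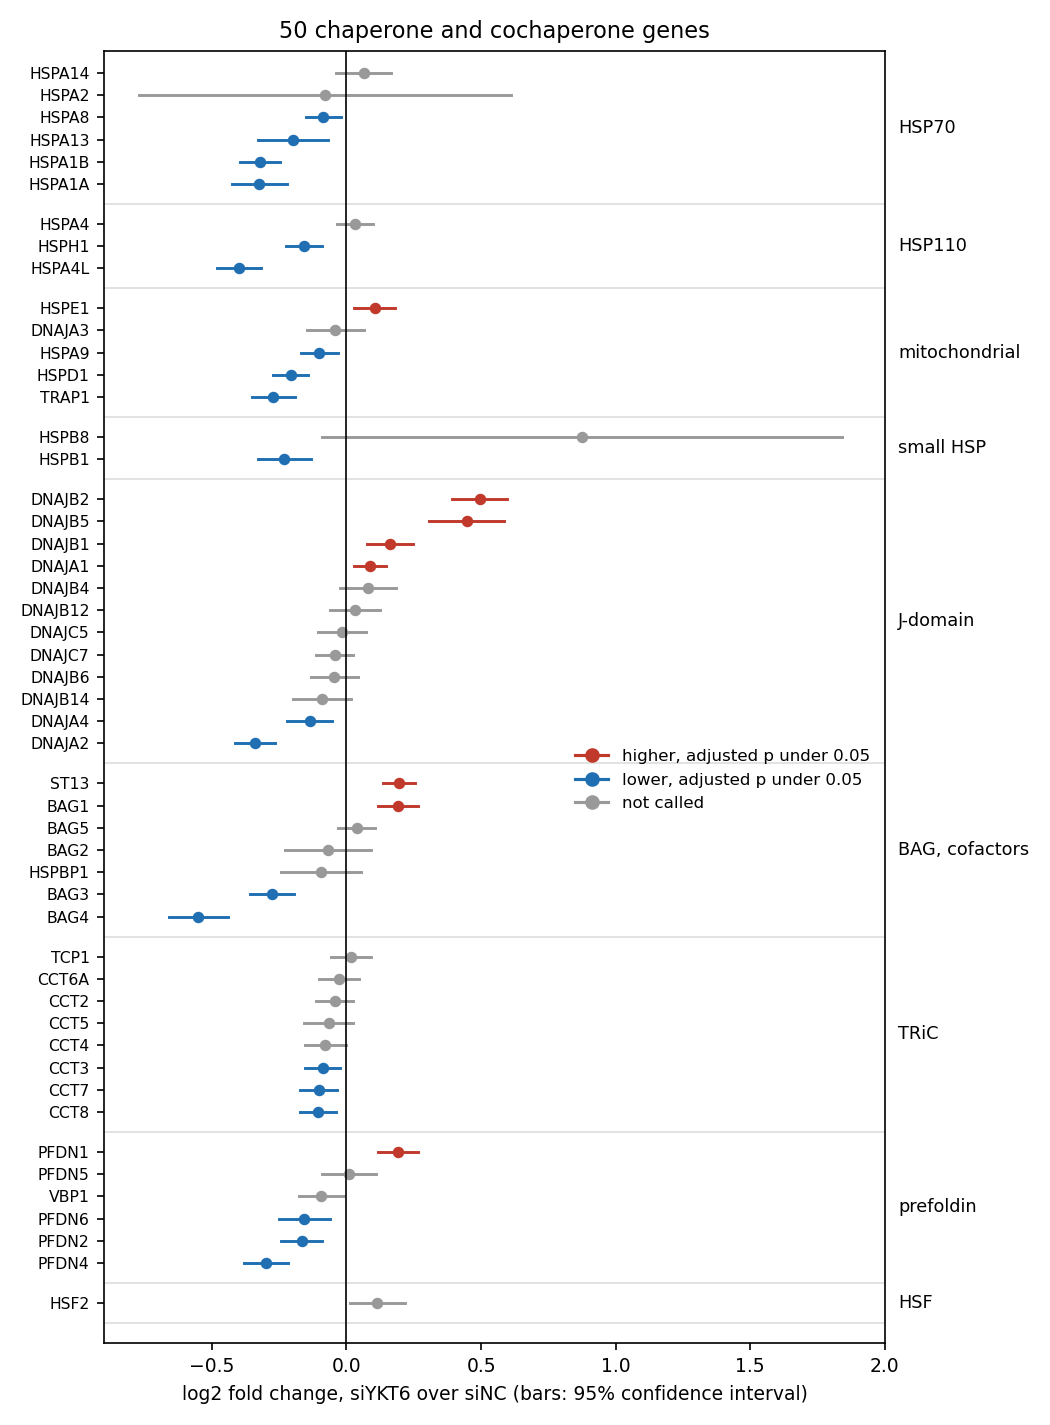
Log2 fold change of siYKT6 over siNC for the 50 genes by role, with 95% confidence intervals from edgeR as bars and the call by color. The points lie between -0.55 for BAG4 and 0.50 for DNAJB2, apart from HSPB8 at 0.88, a gene below 0.5 CPM with an interval that crosses 0.

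Of the 6 HSP70 genes, 4 were lower in siYKT6 and none was higher. This count and those of the other roles below stand beside 16.3% lower and 14.6% higher of all genes tested. Among genes of at least 5 CPM, 24.2% were lower and 22.0% higher. HSPA1A and HSPA1B, which encode the same stress-inducible HSP70, fell the most, to about 80% of the siNC level. HSPA1A had 24.4, 25.4 and 24.7 CPM in siYKT6 cells, against 32.4, 29.0 and 31.8 CPM in siNC cells. HSPA1B had 128, 127 and 134 CPM in siYKT6 cells, against 159, 159 and 168 CPM in siNC cells. All siYKT6 samples lay below all siNC samples for both genes. The log2 fold change was -0.32 ± 0.05 for HSPA1A (edgeR adjusted p = 2.63e-05) and -0.32 ± 0.04 for HSPA1B (edgeR adjusted p = 3.89e-07). These genes share 69.5% of the 100-base stretches of HSPA1A transcripts, and the sources used here do not say how reads that match both were assigned. Summed to 1 gene before the fit, they gave the same log2 fold change of -0.32 (edgeR adjusted p = 2.49e-07), so the direction does not rest on how reads were split between them.

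HSPA8, the constitutive HSP70 of the cytosol, was the most abundant of the 6 per length, at 483 ± 15 TPM (counts per exon length, brought to the same total in every sample) in siYKT6 and 510 ± 13 TPM in siNC (SD, n = 3 each). It had 880, 926 and 888 CPM in siYKT6 cells, against 975, 961 and 924 CPM in siNC cells. The second siYKT6 sample lay just above the third siNC sample, so the groups overlapped. The log2 fold change was -0.09 ± 0.03 (edgeR adjusted p = 0.0398), and the call ended without siYKT6 replicate 1 or 3 or siNC replicate 1 or 2 (adjusted p 0.0679 to 0.169), and under upper quartile scaling, without a filter on low counts and with a replicate block (0.111, 0.0547 and 0.0569). HSPA13, an HSP70-like ATPase of microsomes, had 17.2, 20.4 and 17.3 CPM in siYKT6 cells, against 21.1, 21.7 and 20.2 CPM in siNC cells. Its second siYKT6 sample stood apart from the other siYKT6 samples and lay among the siNC values. The log2 fold change of -0.20 ± 0.06 (edgeR adjusted p = 0.0195) was likewise lost without siYKT6 replicate 1 or 3 or siNC replicate 1 or 2 (adjusted p 0.0547 to 0.112). HSPA14, a ribosome-associated HSP70 homolog, had a log2 fold change of 0.06 with a 95% interval of -0.04 to 0.17. HSPA2, known for its role in male germ cells, was under 0.6 CPM in every sample.

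**Figure D2:**
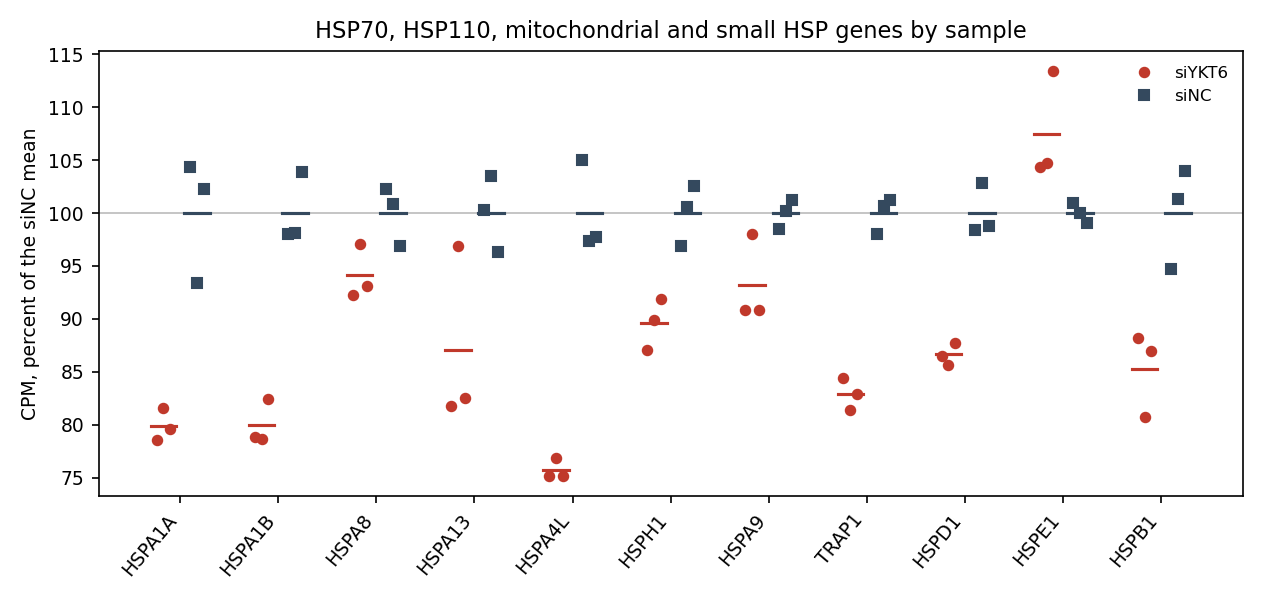
CPM of each sample as a percent of the siNC mean (y axis, not starting at 0) for called HSP70, HSP110, mitochondrial and small heat shock protein genes, with siYKT6 as circles, siNC as squares and the group mean as a line. The siYKT6 samples lie below the siNC samples for all shown genes except HSPA8 and HSPA13, where the groups overlap, and HSPE1, where they lie above.

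The HSP110 genes, whose products are nucleotide exchange factors of HSP70, divided. HSPA4L and HSPH1 were lower in siYKT6, while HSPA4 was not called. HSPA4L had 63.3, 64.7 and 63.3 CPM in siYKT6 cells, against 88.4, 81.9 and 82.2 CPM in siNC cells, or 75.8% of the siNC level (log2 fold change -0.40 ± 0.04, edgeR adjusted p = 5.93e-08). HSPH1 had 615, 636 and 649 CPM in siYKT6 cells, against 685, 711 and 725 CPM in siNC cells (log2 fold change -0.16 ± 0.03, edgeR adjusted p = 0.000572). Neither gene's groups overlapped. The log2 fold change of HSPA4 was 0.03 with a 95% interval of -0.03 to 0.10, which does not reach the value of HSPA4L or HSPH1. The difference between the genes was not tested.

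In the mitochondrial group, TRAP1, HSPD1 and HSPA9 were lower in siYKT6 and HSPE1 was higher. TRAP1, the HSP90 of mitochondria, had 45.0, 43.4 and 44.2 CPM in siYKT6 cells, against 52.3, 53.7 and 54.0 CPM in siNC cells (log2 fold change -0.27 ± 0.04, edgeR adjusted p = 1.26e-05). Of its exon bases, 29.3% also belong to DNASE1 on the other strand, which averaged 47.9 CPM in siYKT6 and 47.6 CPM in siNC. HSPA9, the mitochondrial HSP70 that pulls proteins through the inner membrane, had 582, 628 and 582 CPM in siYKT6 cells, against 631, 642 and 648 CPM in siNC cells. Its second siYKT6 sample lay close under the lowest siNC sample, and the log2 fold change of -0.10 ± 0.03 (edgeR adjusted p = 0.0244) lost its call without siYKT6 replicate 1 or 3 or siNC replicate 3 (adjusted p 0.0682 to 0.130) and under upper quartile scaling (0.0671). DNAJA3, the J-domain partner of HSPA9, had a log2 fold change of -0.04 with a 95% interval of -0.15 to 0.06.

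HSPD1 and HSPE1 encode HSP60 and HSP10, the barrel and the lid of the mitochondrial chaperonin. Their RefSeq start sites are close together and on opposite strands. HSPE1 starts at chr2:197500379 on the plus strand and HSPD1 at chr2:197500274 or chr2:197499840 on the minus strand. The rows of the count table reach further, HSPD1 at chr2:197486581-197516737 and HSPE1 at chr2:197499994-197503457 (GRCh38). The HSPD1 row thus spans the whole HSPE1 row. HSPD1 had 346, 343 and 351 CPM in siYKT6 cells, against 394, 411 and 395 CPM in siNC cells. HSPE1 had 170, 171 and 185 CPM in siYKT6 cells, against 165, 163 and 162 CPM in siNC cells. The siYKT6 samples were all below the siNC samples for HSPD1 and all above them for HSPE1. The log2 fold change was -0.21 ± 0.03 for HSPD1 (edgeR adjusted p = 2.29e-05) and 0.10 ± 0.04 for HSPE1 (edgeR adjusted p = 0.0326). The third siYKT6 sample carried much of the HSPE1 difference: without it the log2 fold change was 0.06 (adjusted p = 0.161), and without siNC replicate 1, 2 or 3 the adjusted p was 0.0562, 0.0632 and 0.106. The ratio of HSPE1 to HSPD1 in TPM was 1.06, 1.07 and 1.13 in siYKT6 cells, against 0.898, 0.852 and 0.879 in siNC cells. HSPE1 thus stood above HSPD1 per length in every siYKT6 sample and below it in every siNC sample. Which gene stands higher depends on the exon lengths used, 1977 bases for HSPE1 and 4245 for HSPD1. The shift of the ratio between the groups does not depend on them. By the RefSeq starts, the heat shock element printed above for HSPD1 lies between the HSPE1 start and the downstream HSPD1 start. It is 294 and 228 bases away from them. The upstream HSPD1 start, at chr2:197500274, is closer, 189 bases away, and the element lies downstream of that start. The rows share 281 bases on opposite strands, which are 14.2% of the exon bases of HSPE1 and 6.62% of those of HSPD1. HSPE1 also shares 192 bases with the readthrough gene HSPE1-MOB4, which averaged 180 CPM in siYKT6 and 168 CPM in siNC, and 9 pseudogene rows of HSPD1 together held 1.95% to 2.61% of its counts.

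**Figure D3:**
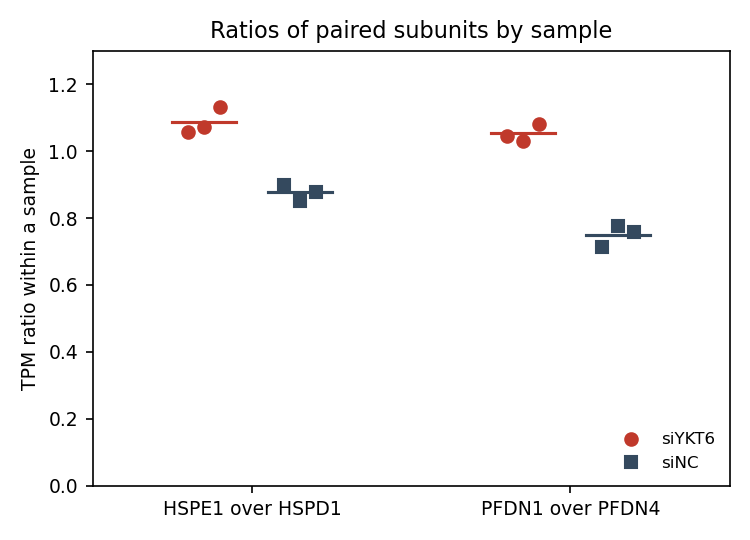
Ratio of the TPM of HSPE1 to HSPD1 and of PFDN1 to PFDN4 in each sample (y axis, from 0), with siYKT6 as circles, siNC as squares and the group mean as a line. Both ratios were above 1 in all 3 siYKT6 samples and below 1 in all 3 siNC samples. Where a ratio stands relative to 1 depends on the annotated exon lengths, while its shift between the groups does not.

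Of the small heat shock proteins, which hold unfolded proteins without using ATP, HSPB1 (HSP27) was lower in siYKT6. It had 37.3, 34.1 and 36.8 CPM in siYKT6 cells, against 40.1, 42.9 and 44.0 CPM in siNC cells. The groups did not overlap, and the log2 fold change was -0.23 ± 0.05 (edgeR adjusted p = 0.000597). HSPB8, which acts with BAG3, was between 0.173 and 0.442 CPM in siYKT6 and between 0.120 and 0.187 CPM in siNC. At this level its log2 fold change of 0.88 had a 95% interval of -0.09 to 1.84 and did not pass the test.

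Of the 12 J-domain genes, 4 were higher and 2 lower in siYKT6. Among all genes tested 14.6% were higher and 16.3% lower, and among those of at least 5 CPM 22.0% and 24.2%. DNAJB2, DNAJB5, DNAJB1 and DNAJA1 were higher in siYKT6, DNAJA2 and DNAJA4 were lower, and 6 of the 12 did not pass. DNAJB2, a J-domain protein known for its high level in neurons, showed the largest increase of all members of at least 5 CPM. It had 24.3, 24.7 and 25.3 CPM in siYKT6 cells, against 17.6, 17.8 and 17.4 CPM in siNC cells, or 141% of the siNC level (log2 fold change 0.50 ± 0.05, edgeR adjusted p = 8.95e-08). DNAJB5 had 13.6, 12.4 and 13.6 CPM in siYKT6 cells, against 9.39, 9.69 and 9.95 CPM in siNC cells (log2 fold change 0.45 ± 0.07, edgeR adjusted p = 1.93e-05). DNAJA2, a cytosolic partner of HSPA8, moved the other way. It had 98.4, 102 and 99.5 CPM in siYKT6 cells, against 131, 124 and 124 CPM in siNC cells, or 79.1% of the siNC level (log2 fold change -0.34 ± 0.04, edgeR adjusted p = 1.91e-07). None of these 3 genes had overlapping groups.

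DNAJA1 and DNAJB1, the main cytosolic J-domain proteins, rose by less. DNAJA1 was the most abundant of the 12 per length, at 1169 ± 23 TPM in siYKT6 and 1093 ± 14 TPM in siNC (SD, n = 3 each), and its log2 fold change was 0.09 ± 0.03 (edgeR adjusted p = 0.0208). The call was lost without siYKT6 replicate 1 or 2 or siNC replicate 2 (adjusted p 0.0632 to 0.0799). DNAJB1, the classical HSP40 and a heat shock target, had a log2 fold change of 0.16 ± 0.04 (edgeR adjusted p = 0.00494), lost without siNC replicate 3 (adjusted p = 0.0512). DNAJA4 had a log2 fold change of -0.14 ± 0.04 (edgeR adjusted p = 0.0123), also lost without siNC replicate 3 (adjusted p = 0.0949). The uncalled DNAJB4, DNAJB6, DNAJB12, DNAJB14, DNAJC5 and DNAJC7 lay between a log2 fold change of -0.09 for DNAJB14 and 0.08 for DNAJB4, and DNAJB14 passed as lower without siYKT6 replicate 1 (adjusted p = 0.0440).

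**Figure D4:**
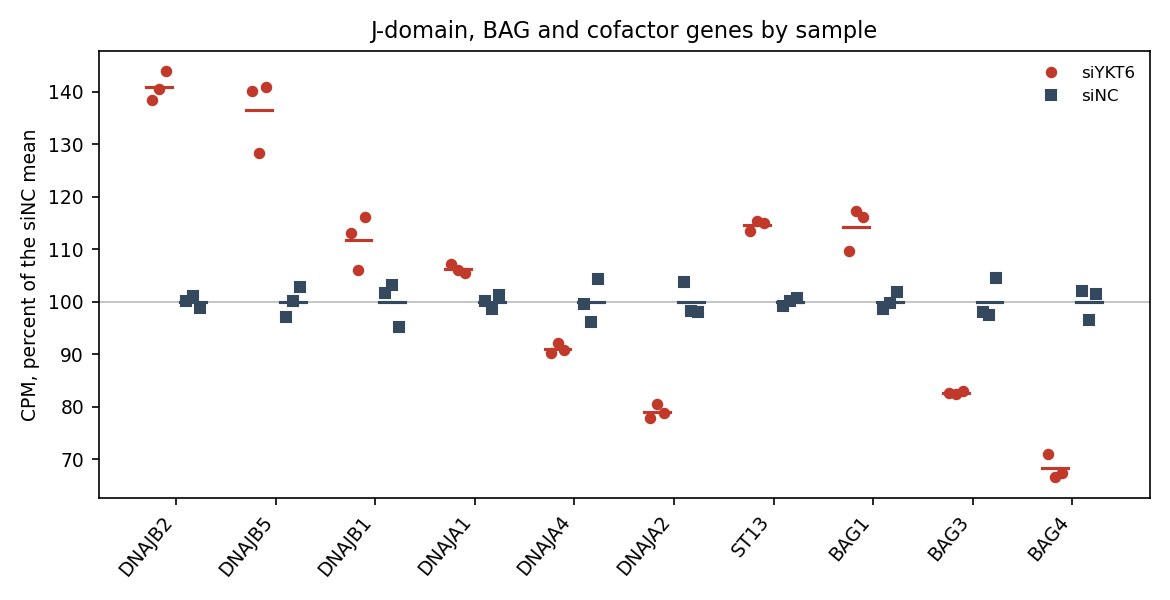
CPM of each sample as a percent of the siNC mean (y axis, not starting at 0) for called J-domain, BAG and cofactor genes, with siYKT6 as circles, siNC as squares and the group mean as a line. The siYKT6 samples lie above all siNC samples for DNAJB2, DNAJB5, DNAJB1, DNAJA1, ST13 and BAG1 and below them for DNAJA4, DNAJA2, BAG3 and BAG4.

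The BAG proteins and other cofactors of HSP70 moved in both directions. BAG4 and BAG3 were lower in siYKT6, ST13 and BAG1 were higher, and BAG2, BAG5 and HSPBP1 did not pass. BAG4 (SODD), known to bind death domains of TNF receptors, had 17.1, 16.1 and 16.3 CPM in siYKT6 cells, against 24.7, 23.3 and 24.5 CPM in siNC cells. At 68.3% of the siNC level it showed the largest decrease of the 50 genes (log2 fold change -0.55 ± 0.05, edgeR adjusted p = 4.28e-08). BAG3, the heat-inducible BAG protein of chaperone-assisted autophagy, had 52.8, 52.7 and 53.1 CPM in siYKT6 cells, against 62.8, 62.4 and 66.9 CPM in siNC cells (log2 fold change -0.28 ± 0.04, edgeR adjusted p = 1.07e-05). ST13 (HIP), which stabilizes HSP70 in its client-bound state, had 808, 821 and 819 CPM in siYKT6 cells, against 707, 713 and 717 CPM in siNC cells (log2 fold change 0.20 ± 0.03, edgeR adjusted p = 1.41e-05). The groups did not overlap for any of these 3 genes. The 14 pseudogene rows of ST13 held 1.27% to 1.42% of its counts. BAG1, an exchange factor that links HSP70 to the proteasome, had a log2 fold change of 0.19 ± 0.04 (edgeR adjusted p = 0.000225). BAG5 had a log2 fold change of 0.04 with a 95% interval of -0.03 to 0.11. BAG2 had -0.07 with an interval of -0.23 to 0.09, and HSPBP1 had -0.09 with an interval of -0.24 to 0.05. Of the exon bases of BAG2, 42.7% are also in RAB23 on the other strand. RAB23 averaged 22.0 CPM in siYKT6 and 19.5 CPM in siNC, more than BAG2 at 8.76 and 9.22 CPM. Its log2 fold change was 0.17. How much of the BAG2 value came from RAB23 reads was not tested.

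The 8 subunits of TRiC stayed close together. CCT8, CCT7 and CCT3 were lower in siYKT6 by about 0.10 on the log2 scale, and the other 5 did not pass. CCT8 had 388, 376 and 396 CPM in siYKT6 cells, against 421, 423 and 404 CPM in siNC cells (log2 fold change -0.10 ± 0.03, edgeR adjusted p = 0.0168). CCT7 had 310, 315 and 329 CPM in siYKT6 cells, against 341, 338 and 346 CPM in siNC cells (log2 fold change -0.10 ± 0.03, edgeR adjusted p = 0.0181). CCT3 had 470, 466 and 483 CPM in siYKT6 cells, against 493, 517 and 498 CPM in siNC cells (log2 fold change -0.09 ± 0.03, edgeR adjusted p = 0.0371). The groups of these genes did not overlap, yet each call ended when certain libraries were left out. CCT8 lost it without siYKT6 replicate 2 or siNC replicate 1 or 2 (adjusted p 0.0525 to 0.116), and CCT7 without siYKT6 replicate 1 or 2 or siNC replicate 3 (0.0746 to 0.108) and under upper quartile scaling (0.0540). CCT3 lost it without siYKT6 replicate 1 or 2 or siNC replicate 2 or 3 (0.0633 to 0.156), under upper quartile scaling (0.102), without a filter on low counts (0.0820) and with a replicate block (0.0608). In turn CCT4 passed as lower without siYKT6 replicate 3 (0.0305), and CCT5 without siNC replicate 1 (0.00828).

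The other subunits had log2 fold changes of -0.08 for CCT4, -0.07 for CCT5, -0.04 for CCT2, -0.03 for CCT6A and 0.02 for TCP1. The interval of TCP1 was -0.06 to 0.09 and that of CCT6A -0.10 to 0.05. CCT5 shares 30.1% of its exon bases with an uncharacterized gene on the other strand. Per length, CCT3 was the highest subunit, at 307 ± 3.0 TPM in siYKT6 and 324 ± 11 TPM in siNC, and CCT4 the lowest, at 103 ± 2.1 TPM in siYKT6 and 108 ± 3.1 TPM in siNC (SD, n = 3 each). Between them in siYKT6 came CCT8 at 302, CCT5 at 296, CCT7 at 231, TCP1 at 161, CCT6A at 152 and CCT2 at 120 TPM. The order was the same in siNC, although CCT3, CCT8 and CCT5 lay within their spread of each other in both groups, as did TCP1 and CCT6A. The highest subunit exceeded the lowest 2.97 times in siYKT6 and 3.00 times in siNC. The subunits stand in equal number in the assembled ring, but the length used here counts every annotated exon base, so these levels also depend on the annotation.

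**Figure D5:**
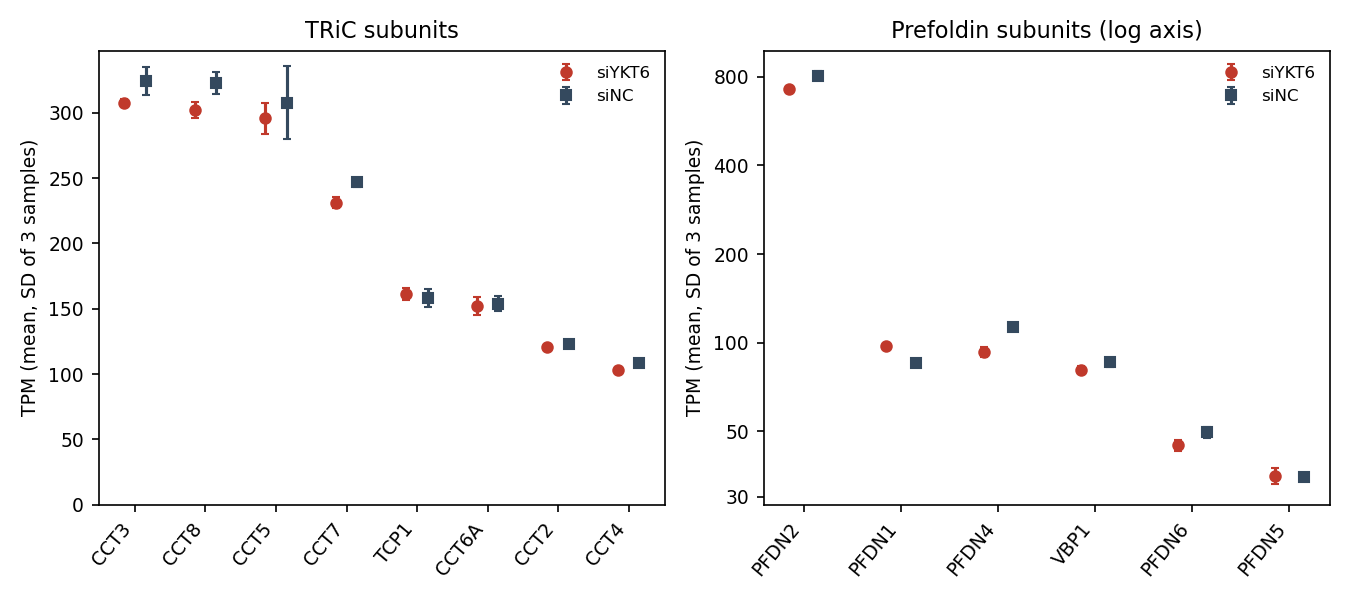
TPM of the TRiC subunits (linear axis from 0) and of the prefoldin subunits (log axis), as means with SD over 3 samples, with siYKT6 as circles left of siNC as squares. The means of TRiC keep 1 order in both groups, although some neighbors lie within their spread of each other. PFDN1 lies above PFDN4 in siYKT6 and below it in siNC.

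The log2 fold changes of the 6 prefoldin subunits ran from -0.30 to 0.19, those of TRiC from -0.10 to 0.02. PFDN4, PFDN2 and PFDN6 were lower in siYKT6, PFDN1 was higher, and PFDN5 and VBP1 did not pass. PFDN4 had 69.6, 72.7 and 68.5 CPM in siYKT6 cells, against 89.7, 84.1 and 85.7 CPM in siNC cells (log2 fold change -0.30 ± 0.04, edgeR adjusted p = 3.12e-06). PFDN1 had 79.5, 81.8 and 80.9 CPM in siYKT6 cells, against 70.0, 71.3 and 71.0 CPM in siNC cells (log2 fold change 0.19 ± 0.04, edgeR adjusted p = 0.000264). PFDN2 had 180, 187 and 196 CPM in siYKT6 cells, against 206, 209 and 217 CPM in siNC cells (log2 fold change -0.17 ± 0.04, edgeR adjusted p = 0.00115). None of the 3 had overlapping groups. PFDN6 had a log2 fold change of -0.16 ± 0.05 (edgeR adjusted p = 0.0116), lost without siYKT6 replicate 1 or siNC replicate 1 (adjusted p = 0.0906 and 0.0836), and 24.5% of its exon bases are shared with RGL2 on the other strand. VBP1 had -0.09 and passed as lower without siYKT6 replicate 3 (adjusted p = 0.0270), and PFDN5 had 0.01 with an interval of -0.09 to 0.11.

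By level per length, PFDN2 stood far above the other subunits, at 724 ± 22 TPM in siYKT6 and 807 ± 27 TPM in siNC, and PFDN5 was the lowest, at 35.4 ± 2.2 TPM in siYKT6 and 34.9 ± 0.40 TPM in siNC (SD, n = 3 each). This order and its gaps depend on the annotated exon lengths, 677 bases for PFDN2 and 3380 for PFDN5. In CPM the gap was smaller: PFDN2 averaged 188 in siYKT6 and 211 in siNC, and PFDN5 45.8 in siYKT6 and 45.5 in siNC. PFDN1 had 97.7 ± 1.4 TPM in siYKT6 and 85.1 ± 1.6 TPM in siNC, and PFDN4 had 92.9 ± 3.5 TPM in siYKT6 and 114 ± 2.8 TPM in siNC. VBP1 had 81.1 ± 2.1 TPM in siYKT6, below PFDN1, and 86.0 ± 3.0 TPM in siNC, within the spread of PFDN1. PFDN6 had 44.9 TPM in siYKT6 and 49.7 TPM in siNC. The ratio of PFDN1 to PFDN4 was 1.05, 1.03 and 1.08 in siYKT6 cells, against 0.714, 0.777 and 0.759 in siNC cells. Both encode beta-type subunits of the same hexamer.

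HSF2, a heat shock factor active in development, had a log2 fold change of 0.11 ± 0.05 and did not pass (edgeR adjusted p = 0.0867), but passed as higher under upper quartile scaling (0.0437) and without siNC replicate 2 (0.0273). HSF1, the main factor of the heat shock response, had a log2 fold change of -0.15 (edgeR adjusted p = 0.0240), with means of 19.9 CPM in siYKT6 and 22.1 CPM in siNC. Among the remaining listed heat shock factors and their binding proteins only HSF2BP passed, higher by 0.35 at a mean of 2.79 CPM in siYKT6 and 2.19 CPM in siNC.

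Further genes of the same families were read from the same fit. The counts below stand beside 14.6% higher and 16.3% lower of all genes tested. Of genes of at least 5 CPM, 22.0% were higher and 24.2% lower. Of 32 other J-domain genes tested, 2 were higher and 8 lower in siYKT6, with a median log2 fold change of -0.06. The largest decreases were in DNAJC3 (P58IPK) at -0.51 and DNAJC10 (ERDJ5) at -0.44, both of the endoplasmic reticulum, in DNAJC19, a protein of the mitochondrial inner membrane, at -0.50 and in DNAJC22 at -0.40. Of 5 other HSP70 and HSP110 genes tested, HSPA5 (BiP) fell by 0.35 on the log2 scale and HYOU1 by 0.19, both of the endoplasmic reticulum, and the other 3 were under 1 CPM. HSPA5 had 1226, 1222 and 1255 CPM in siYKT6 cells, against 1576, 1608 and 1549 CPM in siNC cells. Of 13 other cofactors, 3 were higher and 5 lower, among them SGTA, a cochaperone of tail-anchored proteins, at 0.31, and TOMM34, a cochaperone of mitochondrial import, at -0.73, GRPEL2, a mitochondrial exchange factor, at -0.47 and TTC4 at -0.26. Of 16 partners of TRiC and prefoldin, 2 were higher and 2 lower, with PDRG1, a prefoldin-like protein, at 0.66, TBCD at 0.19 and TBCE at -0.15, both tubulin folding cofactors, and the ATPase RUVBL1 at -0.30.

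Across 29 tested heat shock response genes, 17 of them members, 3 were higher and 10 lower in siYKT6, with a median log2 fold change of -0.06. Of all genes tested, 14.6% were higher and 16.3% lower, and of those of at least 5 CPM 22.0% and 24.2%. The 3 that rose were DNAJB1, DNAJA1 and HSPE1, all members already counted above. The decreases were led by the cytosolic HSP90 gene HSP90AA1, with means of 2956 CPM in siYKT6 and 6868 CPM in siNC (log2 fold change -1.22), and by its cochaperone FKBP4 (-0.53), followed by HSPA4L and HSPA1A. Of the 12 listed genes tested that are no members, 2 were lower (HSP90AA1 and FKBP4), 0 were higher and 10 did not pass. No member reached the size of the HSP90AA1 difference. Among the other HSP90 genes, HSP90AB1 had a log2 fold change of 0.03 and did not pass, and HSP90B1 of the endoplasmic reticulum had -0.23. HSPA6 and CRYAB, which are strongly induced by heat in many cells, were at means of 0.522 and 0.0894 CPM in siYKT6 and 0.570 and 0.0386 CPM in siNC.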

How the data were processed

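Gene counts of 6 libraries were used: 3 siYKT6 and 3 siNC samples of 5637 cells, prepared with a stranded mRNA kit, all with 1 batch label. The deposited values are raw counts, which the authors obtained with fastp 0.23.0 for read filtering, an alignment to GRCh38 (the sources used here name no aligner) and featureCounts (Subread 1.5.1) over exons. The deposited table's length column, the merged exon bases of each gene (other unit), was used for TPM. Between 68.8% and 70.0% of counts of 1 to 20 were even, so both reads of a pair were mostly counted.

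The main test was edgeR 4.0.16 (R 4.3.3), quasi-likelihood, TMM, filterByExpr, Benjamini-Hochberg adjustment over 21036 genes, threshold 0.05. The study used DESeq2, which was run as an alternative (version 1.42.0), as was limma-voom (limma 3.58.1). SE are the log2 fold change divided by the square root of F. The test was checked on simulated data. Members, gene lists and tests were chosen with earlier results of these data known. Values per sample are given for the 3 called members of each role group with the largest changes (all in groups of up to 3), HSPA8, HSPA1A, HSPA1B and YKT6, and up to 4 called genes of at least 1 CPM are named of each other list. HSP90AA1, HSP90AB1, HSP90B1, HSF1 and HSPA5 are named in any case; values per sample of HSPA9 and HSPA5, the levels of HSPA6 and CRYAB, and the ratios of HSPE1 to HSPD1 and PFDN1 to PFDN4 were added after their values were seen. The 5 CPM background was also chosen after seeing the data. Replicate numbers did not pair samples. Promoter sequences are from RefSeq (GRCh38.p14).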

Additional observations from a re-analysis of the deposited data

How the results depend on the processing

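Under 14 alternatives (other scaling, filter, test, halved counts, a replicate block and each library left out), 17 of the 28 called members kept their call and direction in every one, 5 of them higher and 12 lower. The other 11 lost the call in at least 1 alternative, none changed direction, and 5 uncalled members passed in at least 1. Leaving out each library gave 6 to 7 members higher and 15 to 19 lower. DESeq2, limma-voom, DESeq2 size factors, halved counts and the stricter filter lost and gained no member, upper quartile scaling lost 4 and gained 1 (9 higher, 16 lower), and no filter lost 2. Scaling moved the median log2 fold change of all genes to at most 0.02. With a replicate block, 8 members were higher and 18 lower; same-numbered samples correlated at -0.003, -0.07 and 0.006, so the block has no basis in shared samples. The shorter heat shock motif matched 18 members in place of 4, because it asks for fewer bases. The 11 members that lost a call had log2 fold changes between -0.20 and 0.16.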
